A study of Homo sapiens with 4 samples.

Results

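Urokinase, its receptor and the serine proteases of the epithelial surface were followed as a set of 10 genes, chosen by name from the plasminogen activators, their receptor and epithelial surface proteases, out of 18323 genes with a probe set of a single symbol. They were PLAU, PLAT and PLAUR of the plasminogen activator system, PRSS8, ST14, TMPRSS4 and TMPRSS11E among membrane-anchored proteases, and the kallikreins KLK5, KLK6 and KLK10. Each had 1 probe set, and all 10 passed the filter on dim probe sets. They were chosen with earlier results of these data known. Counts of these genes beside the share over all genes are therefore no test of the set. RNA came from 2 human nasopharyngeal carcinoma cell lines, on 1 single-colour array for each of 4 groups. The groups were HK1EBV with 110 µM of caffeic acid phenethyl ester (CAPE), HK1EBV with dimethyl sulfoxide (DMSO) at 0.1%, HK1 with 110 µM CAPE and HK1 with DMSO at 0.1%, all for 24 h. CAPE is a phenolic ester of propolis that is known to inhibit NF-κB. The name HK1EBV was read as HK1 with Epstein-Barr virus, of which the labels give no further detail. Effects of the virus and of any other difference between the lines cannot be told apart.

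Urokinase is a secreted serine protease that cleaves plasminogen to plasmin, and its receptor holds it at the cell surface. Plasmin degrades fibrin and other matrix proteins and activates further proteases. In epithelia, matriptase (ST14) and prostasin (PRSS8) act on one another at the cell membrane, and matriptase can activate pro-urokinase and pro-hepatocyte growth factor. Kallikreins are secreted proteases of squamous and glandular epithelia, best known for the shedding of the outer skin, where they cleave proteins of the cell junctions.

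Values were RMA values taken as log2, the scale RMA usually gives, and all folds rest on that reading. Array medians lay between 2.23 and 2.27. With 1 array in each group, the difference of a pair of arrays is a value without a replicate check. For tests, both lines stood as replicates of the CAPE change and both treatments as replicates of the line difference, in a limma fit over 15194 genes with 1 residual degree of freedom. The labels name no separate cultures, so its p-values measure only how these arrays spread. For a given gene, that spread is how far its HK1EBV and HK1 CAPE differences disagree, drawn towards the variance of all genes. Whether such a disagreement is technical or a true difference in response was not tested. KLK6 and KLK10, whose CAPE differences disagreed most among the 10 genes, thus had the largest moderated SEs, 0.31 and 0.27. All 7 measured epithelial markers were above the median of all probe sets, with KRT5 at 9.49 to 10.25 and KRT14 at 9.13 to 9.98. KRT8 and KRT19 were much lower, at 2.26 to 3.05 and 2.43 to 2.91, and TP63, KRT17 and KRT6A were not analysed here. Of 6 fibroblast markers 2 were above that median, of 5 leukocyte markers 1 and of 5 endothelial markers 0. The leukocyte marker above it was CD68, a lysosomal protein, higher with CAPE by 1.14 in HK1EBV and 1.23 in HK1. The log2 values of the leukocyte list, dim genes included, added up to 12.79 in HK1EBV and 12.47 in HK1 with CAPE, against 11.98 and 11.28 with DMSO. PTPRC, the defining leukocyte marker, stood at 0.46 to 0.49 on all 4 arrays. CD14 differed with CAPE by -0.12 in HK1EBV and -0.05 in HK1. CD3E read 0.59 and 0.58 with CAPE, against 0.80 on both DMSO arrays, and LYZ 0.63 and 0.67, against 0.64 and 0.48. CD68 was thus the 1 measured leukocyte marker higher with CAPE in both lines. The part of the other leukocyte markers in the results was not tested.

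The 250 bases before the transcription start are shown for 4 genes, because PLAU and its receptor were higher with CAPE in both lines and KLK6 and KLK10 were lower with CAPE in HK1EBV. The sequences are RefSeq's for GRCh38.p14, where 6 of the 10 genes matched a window. That of PLAU lies at chr10:73910882-73911131 on the plus strand, before the downstream of its 2 annotated starts. That of PLAUR lies at chr19:43670170-43670419, that of KLK6 at chr19:50969592-50969841 and that of KLK10 at chr19:51019862-51020111, all on the minus strand and written 5′ to 3′. Capitals mark matches to any of 4 motifs searched on both strands.
PLAU: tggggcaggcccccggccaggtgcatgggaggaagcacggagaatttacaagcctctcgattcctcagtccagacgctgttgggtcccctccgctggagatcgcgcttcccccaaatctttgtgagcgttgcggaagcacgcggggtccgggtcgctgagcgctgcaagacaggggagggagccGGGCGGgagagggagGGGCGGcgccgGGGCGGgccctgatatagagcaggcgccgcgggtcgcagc
PLAUR: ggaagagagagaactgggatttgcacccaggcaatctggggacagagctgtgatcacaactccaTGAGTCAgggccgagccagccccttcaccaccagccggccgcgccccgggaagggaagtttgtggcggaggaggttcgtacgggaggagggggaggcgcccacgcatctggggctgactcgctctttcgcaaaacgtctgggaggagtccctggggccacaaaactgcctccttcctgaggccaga
KLK6: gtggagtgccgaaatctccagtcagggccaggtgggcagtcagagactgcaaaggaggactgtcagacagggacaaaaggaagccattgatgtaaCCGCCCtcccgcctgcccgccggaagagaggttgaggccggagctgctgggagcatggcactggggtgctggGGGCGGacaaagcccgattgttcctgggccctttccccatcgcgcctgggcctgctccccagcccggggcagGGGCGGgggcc
KLK10: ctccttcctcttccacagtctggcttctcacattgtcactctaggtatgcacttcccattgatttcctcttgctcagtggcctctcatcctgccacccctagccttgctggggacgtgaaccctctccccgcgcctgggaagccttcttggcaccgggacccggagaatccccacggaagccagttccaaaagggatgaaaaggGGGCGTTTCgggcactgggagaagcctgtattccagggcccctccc

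The motifs were AP-1 (TGANTCA), the first 9 letters of a site of NF-κB (GGGNNTTTC), the antioxidant response element (TGACNNNGC) and the GC box (GGGCGG). No 2 matches overlapped. The PLAU window held 3 GC boxes within the last 66 bases before the start, and the window of its other start held 1 antioxidant response element and no GC box. The PLAUR window held 1 AP-1 match, the palindrome TGAGTCA, at bases -186 to -180. KLK6 had 3 GC boxes. KLK10 had 1 match to the NF-κB letters, GGGCGTTTC at bases -46 to -38, which also lies in the window of its other annotated start. Of 35116 windows of the same length, 42.6% held a GC box, 10.9% the antioxidant response element, 6.57% an AP-1 match and 4.16% the NF-κB letters. The windows of KLK5 and TMPRSS11E held 0 matches. The NF-κB site was searched first in its full form of 10 letters, which has 1 more C at the end, and that search matched 1.73% of the windows and 0 of the 8 windows of these genes, KLK10 included. The shorter form was taken after that result was seen, so the KLK10 match depends on this choice.

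The first comparison was CAPE with DMSO. PLAU and PRSS8 had the largest positive differences of the 10 genes, close to 2-fold for PLAU, and both were higher in each line. ST14 and PLAUR were higher in both lines by smaller amounts, PLAT was lower in both, and KLK6 and KLK10 were lower with CAPE in HK1EBV, at -1.27 and -0.75, with 0.018 and 0.33 in HK1. In bulk RNA a change in the share of cells that express a gene and a change in RNA per cell cannot be told apart. The difference was above 0 in both lines for 5 of 10, against 32.1% of all genes, and below 0 in both for 3, against 29.5%. None (0 of 10) passed the limma test with Benjamini-Hochberg adjustment over all genes, where 0.00658% of genes tested passed. At an unadjusted p under 0.05 the count was 5 of 10, against 19.5% of all genes. Without 57 genes whose residual was exactly 0, which held the prior degrees of freedom of limma at 3.90, against 9.89 without them, 3 of 10 passed, against 8.21% of all genes. Then PLAU and PRSS8 rose (higher calls being 4.07% of all genes) and PLAT fell (lower calls 4.14%).

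PLAU read 5.53 in HK1EBV and 7.06 in HK1 with CAPE, against 4.74 and 5.99 with DMSO. Both lines were higher with CAPE, but the HK1EBV CAPE array stayed below the HK1 DMSO array, so the treatment groups overlapped. The mean difference was 0.93 ± 0.13 (n = 2 lines, with limma's moderated SE, which draws a gene's variance towards that of all genes). This is 1.90-fold, with an adjusted p = 0.0746 in limma and 0.00310 without the genes of zero residual. In HK1 the difference of 1.07 was the 1 member at least 2-fold higher, against 0.671% of all genes.

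PLAUR, which encodes the urokinase receptor, read 4.52 in HK1EBV and 4.24 in HK1 with CAPE, against 4.16 and 3.86 with DMSO. It was the 1 gene of the 10 whose CAPE arrays both lay above both DMSO arrays, a pattern of 18.4% of all genes. Its differences were 0.35 in HK1EBV and 0.38 in HK1, and the mean of 0.37 ± 0.11 (moderated SE, n = 2) did not pass in limma (adjusted p = 0.175, and 0.118 without the genes of zero residual).

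PLAT, the tissue-type plasminogen activator of fibrin breakdown, read 2.58 in HK1EBV and 3.41 in HK1 with CAPE, against 3.34 and 3.78 with DMSO. The 2 activators thus stood on opposite sides of 0, PLAT at -0.76 in HK1EBV and -0.36 in HK1. Its mean was -0.56 ± 0.14 (moderated SE, n = 2), with a limma adjusted p = 0.137, or 0.0356 without the genes of zero residual.

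**Figure D1:**
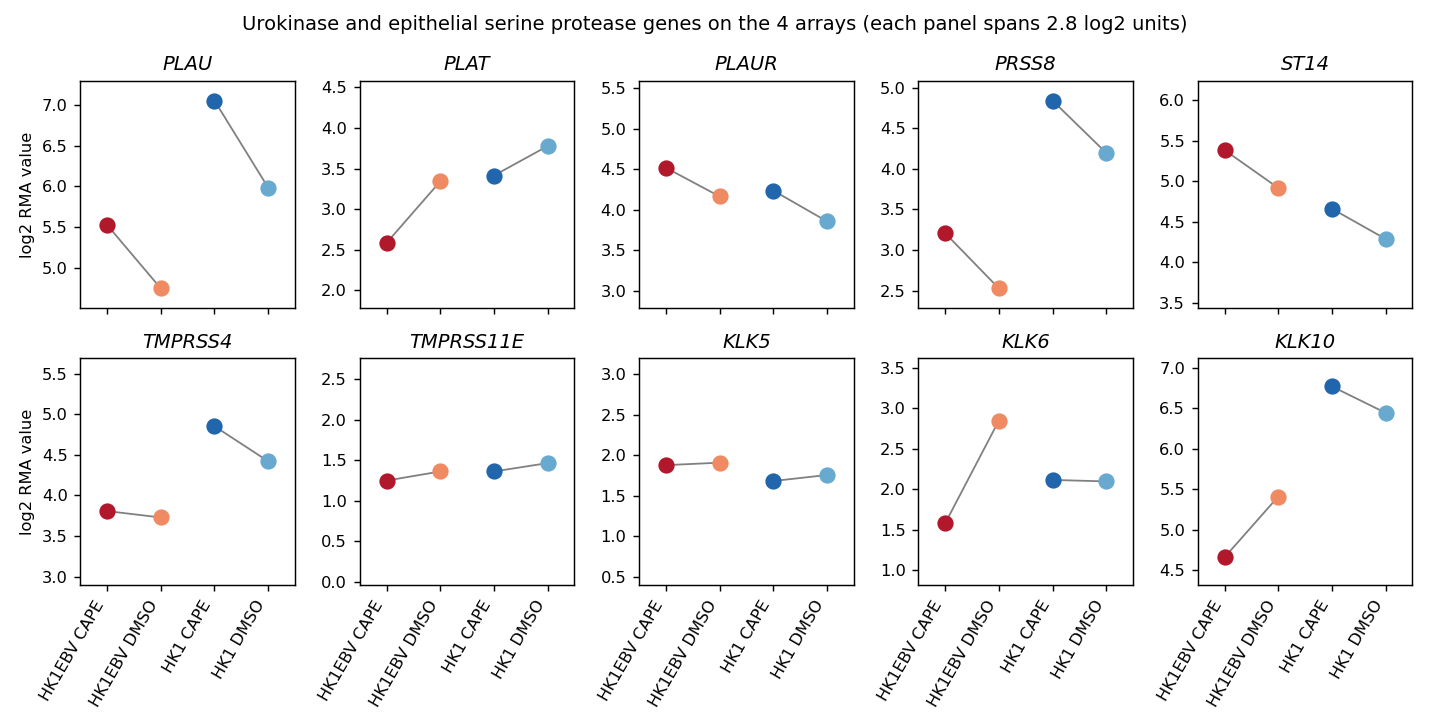
Log2 RMA value of the 10 genes (y axis, each panel on its own range of equal width) on the HK1EBV CAPE, HK1EBV DMSO, HK1 CAPE and HK1 DMSO arrays, with 1 point per array and a line joining the arrays of a cell line. PLAU and PRSS8 slope the same way in both lines and stand lower in HK1EBV, and KLK6 reads 1.58 with CAPE and 2.85 with DMSO in HK1EBV, against 2.12 and 2.10 in HK1.

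Among membrane-anchored proteases, PRSS8 gave nearly the same CAPE difference in both lines. Prostasin, its product, is held by a lipid anchor and is known for the proteolytic activation of the epithelial sodium channel. PRSS8 read 3.21 in HK1EBV and 4.84 in HK1 with CAPE, against 2.53 and 4.20 with DMSO. Differences of 0.68 and 0.64 averaged 0.66 ± 0.11 (moderated SE, n = 2), or 1.58-fold, with a limma adjusted p = 0.0849, or 0.0120 without the genes of zero residual. The lines stood further apart than the treatments, so the groups overlapped.

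ST14, the gene of matriptase, read 5.39 in HK1EBV and 4.66 in HK1 with CAPE, against 4.92 and 4.29 with DMSO. Its differences of 0.47 and 0.37 averaged 0.42 ± 0.11 (moderated SE, n = 2), and the limma adjusted p was 0.149, or 0.0769 without the genes of zero residual. TMPRSS4, a transmembrane protease described in carcinomas, read 3.81 in HK1EBV and 4.85 in HK1 with CAPE, against 3.73 and 4.42 with DMSO. The difference was 0.08 in HK1EBV and 0.43 in HK1 (limma adjusted p of the mean 0.391), so most of it came from the HK1 pair. TMPRSS11E, another transmembrane protease of squamous epithelia, was dim on all arrays, at 1.25 in HK1EBV and 1.36 in HK1 with CAPE, against 1.36 and 1.47 with DMSO. The HK1 CAPE and HK1EBV DMSO arrays shared 1 value, and with all 4 values under the array medians a fall of TMPRSS11E may not show.

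**Figure D2:**
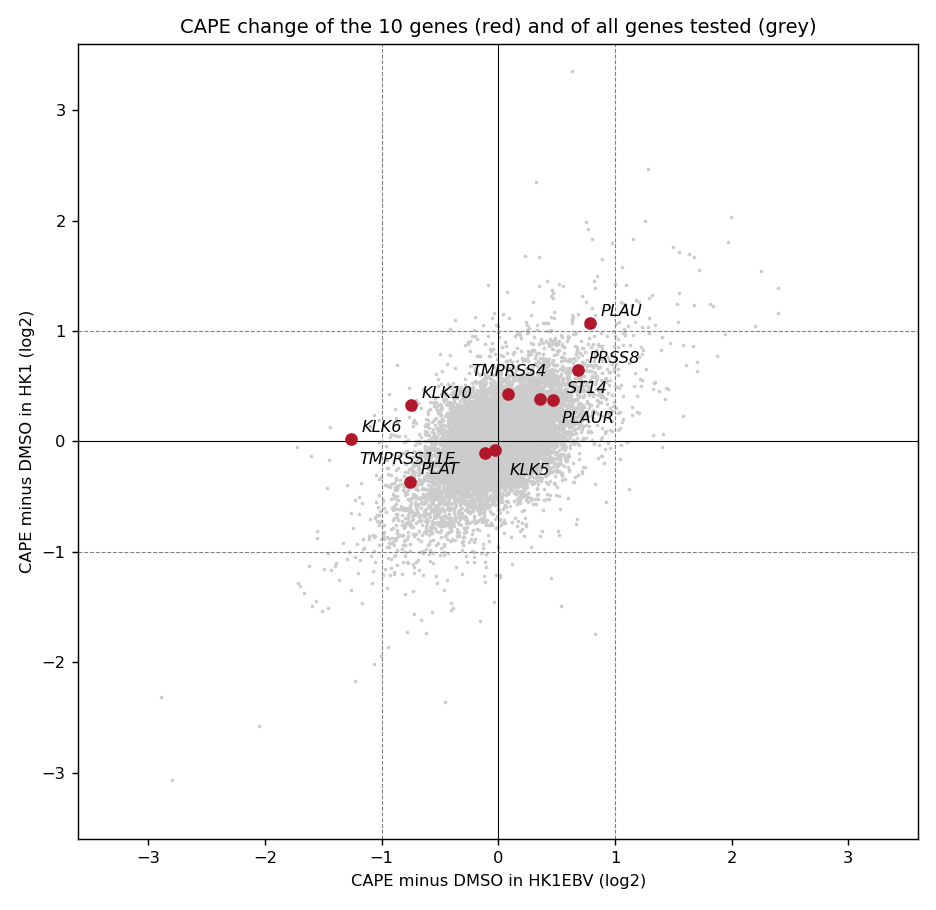
CAPE minus DMSO in log2 units in HK1EBV (x axis) against HK1 (y axis), with 1 point per gene, the 10 genes in red and all 15194 genes tested in grey; dashed lines mark 2-fold. PLAU lies at 0.78 and 1.07, PRSS8 at 0.68 and 0.64, and KLK6 at -1.27 and 0.02.

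The kallikreins gave no common direction. KLK6, a secreted trypsin-like protease, read 1.58 in HK1EBV and 2.12 in HK1 with CAPE, against 2.85 and 2.10 with DMSO. The HK1EBV DMSO array was the high one and the other 3 lay lower. The probe set was dim, with a mean of 2.16, below the median of all probe sets. Its difference of -1.27 in HK1EBV, 2.40-fold in size, was the 1 member at least 2-fold lower in that line, against 0.533% of all genes. In HK1 the difference was 0.018, which turned to -0.032 with arrays shifted to one median and to -0.016 with quantile normalization. The mean over the lines did not pass in limma (adjusted p = 0.360).

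KLK10, a secreted kallikrein of normal epithelium, read 4.66 in HK1EBV and 6.77 in HK1 with CAPE, against 5.41 and 6.44 with DMSO. Its differences had opposite signs, -0.75 in HK1EBV and 0.33 in HK1, as they did for 35.7% of all genes. The HK1EBV change minus the HK1 change was -1.28 for KLK6 and -1.08 for KLK10, the largest in size of the 10 genes, and no residual was left to test it. KLK5, a trypsin-like protease of the outer skin, was dim, at 1.88 in HK1EBV and 1.68 in HK1 with CAPE, against 1.91 and 1.76 with DMSO. Its CAPE difference was -0.03 and -0.07.

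All 15 kallikrein genes, which lie side by side on chromosome 19, were measured, and the 12 that are not members served as neighbours. Their values lay between 1.12 and 2.35 on every array, at or below about the array medians. Their CAPE differences ran from -0.41 to 0.41. In limma 0 of 12 passed with or without the genes of zero residual, against 0.00658% and 8.21% of all genes. KLK7, KLK8 and KLK9, which lie between KLK6 and KLK10, differed by -0.12, -0.20 and -0.04 in HK1EBV and by 0.16, -0.01 and 0.09 in HK1. The 2 kallikreins with large HK1EBV differences were thus separated by 3 genes with small ones. These 3 genes were dim, and so was KLK6.

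**Figure D3:**
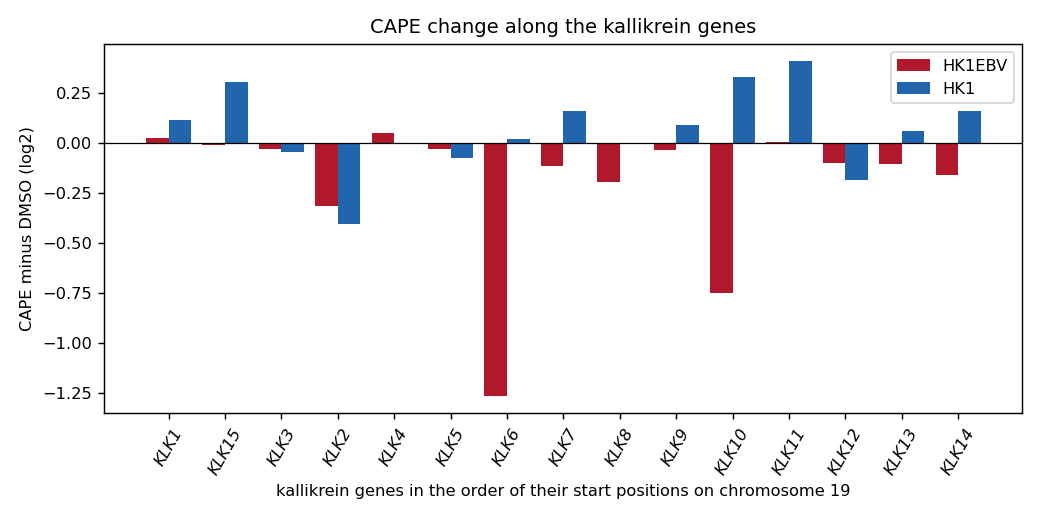
CAPE minus DMSO in log2 units (y axis) for the 15 kallikrein genes in the order of their start positions (x axis), with a bar for HK1EBV and a bar for HK1, 1 array pair each. KLK6 at -1.27 and KLK10 at -0.75 in HK1EBV stand out from the other 13, which lie between -0.41 and 0.41 in both lines.

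The second comparison was HK1EBV with HK1 over both treatments. PRSS8, PLAU and TMPRSS4 were lower in HK1EBV and passed, and KLK10 was lower by a similar size without passing. ST14 and PLAUR were higher in HK1EBV under both treatments without passing. Of 10 genes 3 passed in limma with Benjamini-Hochberg adjustment, all lower, against 2.9% of genes called in either direction, 1.58% called lower and 1.32% called higher. At an unadjusted p under 0.05 the count was 7 of 10, against 23.1% of all genes. Without the genes of zero residual 5 were lower and 1 higher, against 5.34% and 6.26% of all genes. Under no filter on dim probe sets, or without treatment as a term, 0 of 10 passed. Since the 10 genes were chosen with earlier results of these data known, these counts do not test the set.

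PRSS8 had the largest mean difference of the 10 genes, at 3.21 and 2.53 in HK1EBV with CAPE and DMSO, against 4.84 and 4.20 in HK1. The lines did not overlap, and the difference was -1.64 with CAPE and -1.67 with DMSO. It fell by 1.65 ± 0.11 (moderated SE, n = 2 treatments), or 3.15-fold, with a limma adjusted p = 0.0202 and a range over alternatives of 4.07e-05 to 0.230. PLAU differed by -1.53 with CAPE and -1.24 with DMSO, and again the lines did not overlap. Its mean of -1.39 ± 0.13 (moderated SE, n = 2), or 2.62-fold in size, had a limma adjusted p = 0.0274, with a range over alternatives of 0.000168 to 0.346.

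TMPRSS4 was lower in HK1EBV by -0.87 ± 0.14 on the mean (moderated SE, n = 2), at -1.05 with CAPE and -0.69 with DMSO. Its limma adjusted p = 0.04999 lay at the threshold, and it no longer passed under a variance prior with a trend (0.0514). KLK10 differed by -2.11 with CAPE and by -1.03 with DMSO, so its spread between treatments was wide and the mean of -1.57 ± 0.27 (moderated SE, n = 2) had a limma adjusted p = 0.0583. Without the genes of zero residual KLK10 passed, at 0.00101. PLAT differed by -0.83 with CAPE and -0.44 with DMSO (limma adjusted p = 0.0878, or 0.0159 without the genes of zero residual).

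ST14 was the gene that went the other way by most, with differences of 0.72 with CAPE and 0.63 with DMSO. Its mean of 0.68 ± 0.11 (moderated SE, n = 2) had a limma adjusted p = 0.0547, or 0.00756 without the genes of zero residual. Matriptase and its partner prostasin therefore stood on opposite sides of 0 in this comparison, on non-overlapping arrays in both cases. The receptor gene PLAUR was higher by 0.28 with CAPE and 0.31 with DMSO while its ligand gene PLAU was lower (limma adjusted p of PLAUR 0.204). KLK6 changed sign with treatment, at -0.53 with CAPE and 0.75 with DMSO, and KLK5 differed by 0.20 and 0.15 and TMPRSS11E by -0.11 and -0.10.

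In all, 5 genes had both HK1EBV arrays below both HK1 arrays and 2 had them above, patterns of 20.9% and 21.4% of all genes. At least 2-fold apart were 4 genes with CAPE (KLK10, PRSS8, PLAU and TMPRSS4) and 3 with DMSO (PRSS8, PLAU and KLK10), against 1.13% and 0.974% of all genes that far lower in HK1EBV. In each case HK1EBV was the lower line.

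**Figure D4:**
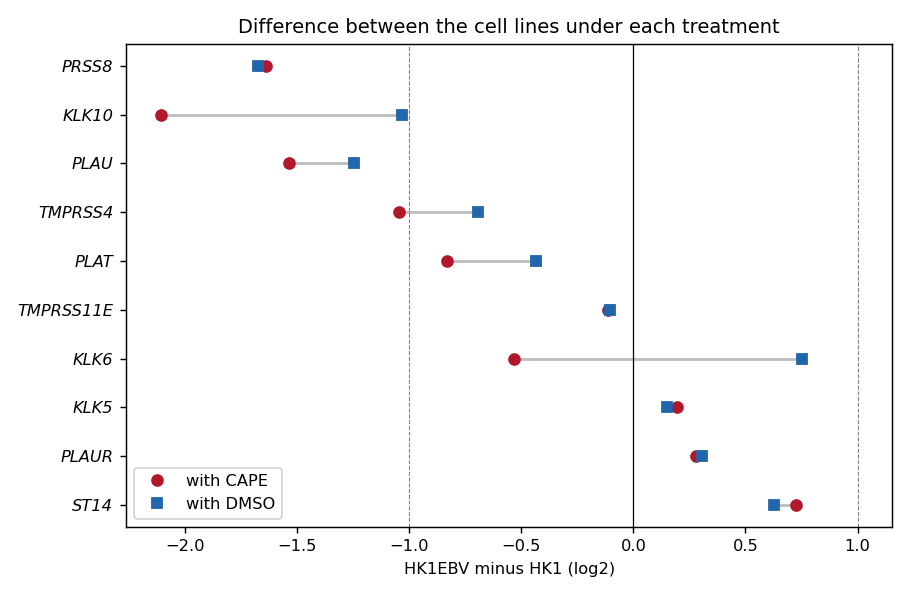
HK1EBV minus HK1 in log2 units (x axis) for the 10 genes (rows, ordered by their mean), with a circle for the CAPE arrays and a square for the DMSO arrays; dashed lines mark 2-fold. PRSS8 lies near -1.65 under both treatments, KLK10 at -2.11 and -1.03, ST14 at 0.72 and 0.63, and KLK6 on both sides of 0.

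Genes with a pattern most like that of PLAU, by Euclidean distance over the 4 arrays after subtracting each gene's mean, were IL20RB at 0.20, HBEGF at 0.23 and NRN1 at 0.27. IL20RB encodes a cytokine receptor subunit, HBEGF a ligand of the epidermal growth factor receptor and NRN1 a neurite growth factor. Nearest to PRSS8 were HBEGF at 0.19, SUMF2 at 0.26 and CSGALNACT2 at 0.28, and PLAU and PRSS8 lay 0.41 apart. HBEGF read 4.82 in HK1EBV and 6.46 in HK1 with CAPE, against 4.16 and 5.59 with DMSO. As for PLAU and PRSS8, it was higher with CAPE in both lines and lower in HK1EBV under both treatments. HBEGF was picked by nearness over these same arrays, so this likeness follows from the choice.

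Partners of the plasminogen system came from a list of which 11 genes were tested. None (0 of 11) passed for CAPE, where 0.00658% of all genes passed. The list medians were -0.14 in HK1EBV and -0.06 in HK1, against 0.00 and 0.02 for all genes. Without the genes of zero residual, 1 rose and 1 fell, against 4.07% and 4.14% of all genes. SERPINE2, the gene of a serpin that inhibits thrombin and urokinase, rose, with differences of 1.23 and 1.04 (limma adjusted p 0.0672, or 0.000954 without those genes). THBS1, a matrix glycoprotein that binds plasminogen, fell, with -1.62 and -1.13 (0.0672, or 0.000737). LRP1, an endocytic receptor that clears urokinase bound to its inhibitors, differed by 0.25 in HK1EBV and 0.82 in HK1, and PLG, plasminogen itself, was dim, with -0.38 and -0.19. THBS1 was also the 1 gene of the list that passed for the line difference, against 2.9% of all genes. It was lower in HK1EBV by -1.37 ± 0.16 (moderated SE, n = 2, limma adjusted p = 0.0364).

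Inhibitors of epithelial serine proteases followed no single direction. Of 12 genes 7 were tested, 4 were below the filter and SPINK5 was not analysed here. For CAPE 0 of 7 passed, against 0.00658% of all genes, with list medians of -0.04 in HK1EBV and 0.20 in HK1. Without the genes of zero residual 1 rose and 1 fell, against 4.07% and 4.14% of all genes. SLPI, an inhibitor secreted by epithelia, read 4.33 in HK1EBV and 6.26 in HK1 with CAPE, against 3.18 and 5.04 with DMSO. Its CAPE differences were 1.15 and 1.22 (limma adjusted p of the mean 0.0672, or 0.000751 without those genes). SLPI was lower in HK1EBV by -1.89 ± 0.11 (moderated SE, n = 2, limma adjusted p = 0.0164), the same directions as PLAU and PRSS8 in both comparisons. SERPINB13, a squamous serpin, fell with CAPE, at -0.72 and -1.19 (0.0849, or 0.00386). For the line difference SLPI was the 1 gene of the 7 that passed, against 2.9% of all genes. Without the genes of zero residual 1 was higher and 2 were lower in HK1EBV, against 6.26% and 5.34% of all genes.

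SPINT1 and SPINT2 encode the Kunitz inhibitors of matriptase and prostasin, and neither passed in either comparison with all genes in the fit. With CAPE, SPINT1 was at 0.30 in HK1EBV and 0.34 in HK1, and SPINT2 at 0.11 and 0.19 (limma adjusted p 0.213 and 0.540). Between the lines SPINT2 was higher in HK1EBV by 0.47 with CAPE and 0.54 with DMSO (limma adjusted p of the mean 0.0852, or 0.0300 without the genes of zero residual). WFDC2 differed with CAPE by -0.25 in HK1EBV and by 0.02 in HK1.

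Other proteases had smaller mean CAPE differences than PLAU and PRSS8. Of 14 other type II transmembrane proteases 7 were tested, 6 were below the filter and TMPRSS2 was not analysed here. For CAPE and the line difference 0 of 7 passed, against 0.00658% and 2.9% of all genes. Without the genes of zero residual 0 passed as well, against 8.21% and 11.6% of all genes. TMPRSS13 and TMPRSS6 had the highest mean CAPE differences, 0.36 and 0.16, and TMPRSS5 and HPN the lowest, both -0.07. Of 8 other trypsin-like or related proteases tested, 0 passed for CAPE, also without the genes of zero residual, against 0.00658% and 8.21% of all genes. Their mean CAPE differences ran from PRSS12 at -0.40 to PRSS21 at 0.19, with PRSS23 at -0.29 and FURIN at 0.13. HTRA1, a secreted serine protease, was lower in HK1EBV by -1.32 ± 0.13 (moderated SE, n = 2, limma adjusted p = 0.0332). FURIN stood on the other side, higher in HK1EBV by 0.64 with CAPE and 1.09 with DMSO, and did not pass (limma adjusted p = 0.0601). Once zero-residual genes were dropped FURIN passed too, at 0.00387. The line calls of this list were then 1 higher and 1 lower, beside 6.26% and 5.34% of all genes. Among the 12 other kallikreins KLK11 and KLK15 were highest for CAPE, at 0.20 and 0.15, and KLK2 and KLK12 lowest, at -0.36 and -0.15.

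Of 20 substrates and targets 15 were tested, 4 were below the filter and F2RL1 was not analysed here. None (0 of 15) passed for CAPE or the line difference, against 0.00658% and 2.9% of all genes. Without the genes of zero residual 2 rose for CAPE and 0 fell, against 4.07% and 4.14% of all genes. MMP3, the gene of a matrix metalloproteinase whose proform plasmin can cleave, rose without the genes of zero residual, with differences of 0.31 in HK1EBV and 0.82 in HK1 (limma adjusted p 0.163, or 0.0439 without those genes). F2R, the thrombin receptor gene, rose likewise, with differences of 0.45 and 0.49 (0.122, or 0.0498 without those genes). SCNN1A, a subunit of the sodium channel that prostasin activates, differed by -0.39 in both lines (0.160, or 0.0957), opposite in sign to PRSS8. The subunit genes SCNN1B and SCNN1G, named after their values were seen, had the sign of PRSS8. SCNN1B differed by 0.14 in HK1EBV and 0.25 in HK1, and SCNN1G by 0.14 and 0.09. Both were dim on all arrays and did not pass. EPCAM differed by 0.25 in HK1EBV and -0.47 in HK1. For the line difference, 1 was higher and 1 lower in HK1EBV without the genes of zero residual, against 6.26% and 5.34% of all genes. MMP1, the gene of an interstitial collagenase, had the largest line difference of the list, 0.41 with CAPE and 1.33 with DMSO (limma adjusted p 0.122, or 0.0137 without those genes). MET, the receptor gene of hepatocyte growth factor, named after its values were seen, differed by -0.46 with CAPE and -0.62 with DMSO (0.0815, or 0.0229 without those genes).

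**Figure D5:**
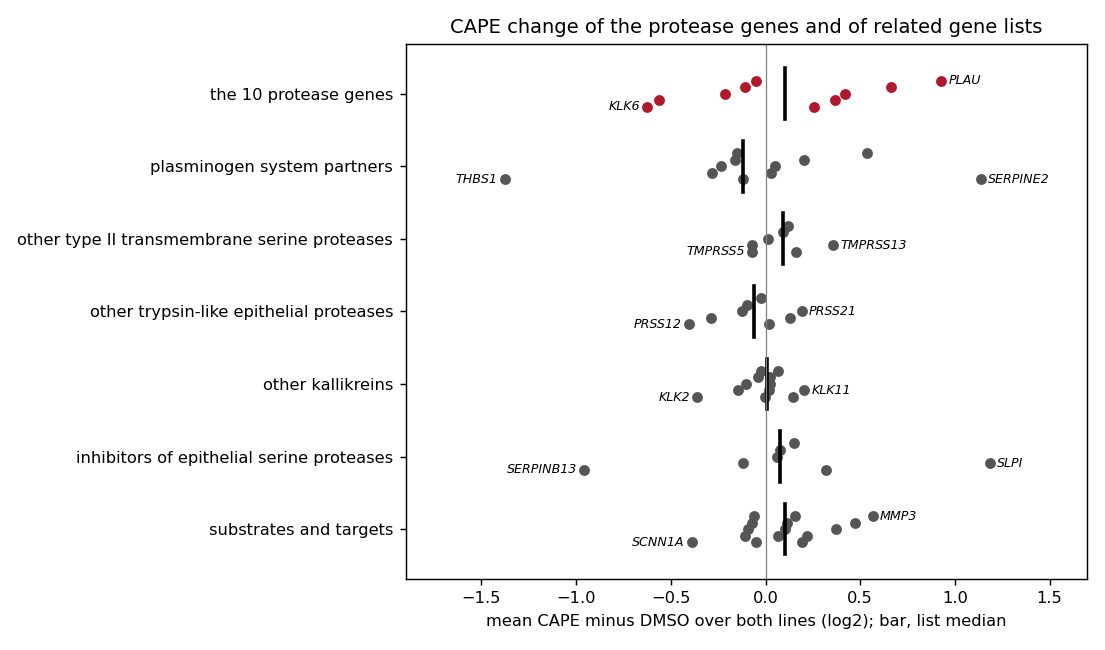
Mean CAPE minus DMSO over both lines in log2 units (x axis) for the 10 genes in red and for the tested genes of 6 related lists in grey, 1 point per gene, with the lowest and highest gene of each row named and the row median as a bar. The medians lie between -0.12 and 0.10, and THBS1 at -1.38, SERPINB13 at -0.96, SLPI at 1.18 and SERPINE2 at 1.14 lie outside the range of the 10 genes, from KLK6 at -0.62 to PLAU at 0.93.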

How the data were processed

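Values were read from the deposited table of 25800 probe sets on 4 arrays. The authors made these values with RMA, per the submitters' processing notes. The deposited values were taken as log2, the usual scale of RMA, since the sources used here give neither its version nor the base of the log. RMA usually brings the probe intensities of arrays to one distribution, which can hide a shift shared by most genes, but the medians of the deposited values still differed, from 2.23 to 2.27. Total RNA was column-purified with a DNase step and labelled as biotinylated cDNA, per the labels' protocols.

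Of these probe sets 18612 had 1 gene symbol, and 18583 matched a RefSeq gene table (GRCh38.p14) by Entrez number. The probe set with the highest mean stood for a gene, and genes with a mean under the 25th percentile, a log2 value of 0.997, were left out. The test was limma 3.58.1 in R 4.3.3 with cell line and treatment as terms, two-sided, with Benjamini-Hochberg adjustment over 15194 genes and a threshold of 0.05. On simulated arrays with 200 genes changed by 2 log2 units, the fit recovered 200, with 7 false calls. With genes of zero residual added it again recovered 200, with 0 false calls. The largest mean CAPE change of the 10 genes was 0.93, and changes of that size were not simulated. The number of arrays limits the precision. Members, lists and the alternative without genes of zero residual were chosen with earlier results of these data known, and the shorter NF-κB motif and the alternatives for counts of members and for single members within 1 line or 1 treatment were added after seeing the data. Named list genes were those with the 2 highest and 2 lowest CAPE changes and the largest line difference, besides SPINT1 and SPINT2 and the 3 genes nearest in pattern to PLAU and to PRSS8.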

Additional observations from a re-analysis of the deposited data

Results flagged for a closer look

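The CAPE change had opposite signs in the 2 lines for 2 of the 10 genes, and with 1 array in each group the difference was not tested. KLK6 stood at -1.27 in HK1EBV and 0.018 in HK1, and its line difference at -0.53 with CAPE and 0.75 with DMSO. KLK10 stood at -0.75 in HK1EBV and 0.33 in HK1. Among the genes named from the lists, 7 also had opposite signs in HK1EBV and HK1, untested as well. They were HPN at -0.36 and 0.22, FURIN at -0.10 and 0.36, HTRA1 at 0.14 and -0.19, KLK15 at -0.0094 and 0.30, WFDC2 at -0.25 and 0.015, EPCAM at 0.25 and -0.47, and MMP1 at -0.39 and 0.53. Of all genes tested 35.7% had opposite signs.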

How the results depend on the processing

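For CAPE, the count of genes called was 1, and 0 of them were members. It came to 894 genes and 2 members with a filter at the 50th percentile, 1029 and 3 with arrays shifted to one median, 691 and 2 with quantile normalization, 379 and 2 with a robust variance prior, 1243 and 3 without genes of zero residual, and 544 and 2 at an adjusted p under 0.1. A variance prior with a trend gave 7 genes, and no filter or no cell line term gave 0. The calls without genes of zero residual were 8.21% of all genes.

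For the line difference, the count was 440 genes and 3 members. It came to 1296 and 6 with a filter at the 50th percentile, 1534 and 6 with arrays shifted, 1290 and 6 with quantile normalization, 959 and 5 with a robust prior, 1756 and 6 without genes of zero residual, 1390 and 6 at an adjusted p under 0.1, and 0 and 0 with no filter or no treatment term. The calls without genes of zero residual were 11.6% of all genes. In both comparisons the filter at the 50th percentile tested fewer genes, and TMPRSS11E, KLK5 and KLK6 were not among them. Leaving out genes of zero residual changes the variance prior by construction, and for the other settings the cause was not tested.

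At 1.5-fold in place of 2-fold, of 15194 genes tested, CAPE gave 1145 genes and 5 members in HK1EBV and 1089 and 2 in HK1. The line difference gave 1539 genes and 6 members with CAPE, and 1271 and 6 with DMSO. With a filter at the 50th percentile 0 members were 2-fold apart in HK1EBV, because KLK6 was no longer tested. KLK6 turned to -0.032 in HK1 with arrays shifted and to -0.016 with quantile normalization. Of 120 values of single members under these 2 scalings, the other 118 kept their direction. The other settings left all 242 values of single members as they were, so they bear on the calls alone. Over all settings 26 calls of members were newly past the threshold and 7 no longer past it. With 1 array a group none could be left out. The fit with both terms already compares CAPE with DMSO within each line and the lines within each treatment, and the fit without the cell line or treatment term is its unpaired form. Dim probe sets (TMPRSS11E, KLK5, KLK6) limit what a fall could show.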
